A study of Mus musculus with 22 samples.

Results

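CREB1 and C/EBP beta sites were mapped at 10 genes of DNA replication and the cell cycle in the mouse line mpkCCD (clone 11), which was derived from the cortical collecting duct of the kidney. The 10 genes were Pcna, Mcm2, Mcm3, Mcm4, Mcm5, Mcm6, Mcm7, Ccna2, Ccnd1 and Cdkn1a, out of 21631 protein-coding genes on the autosomes and the X chromosome. They were chosen by name, and each chromatin immunoprecipitation (ChIP) peak in a gene or within 50 kb of it in mm10 was linked to that gene. The 4 groups were CREB1 after dDAVP (4 samples), CREB1 after vehicle (4 samples), C/EBP beta after dDAVP (2 samples) and C/EBP beta after vehicle (2 samples). dDAVP, a vasopressin analog selective for the V2 receptor, was given at 0.1 nM for 30 min. All cells, vehicle cells included, were a single clone grown to confluence on permeable supports and then kept without serum or hormones before treatment, so none was in growth medium at harvest.

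The data for each group were 1 deposited peak list, and values of single samples were not analysed here. The CREB1 lists held 406 peaks after dDAVP and 785 after vehicle, and the C/EBP beta lists held 2401 after dDAVP and 209 after vehicle. The read depth behind them is unknown. A gene without a peak is a gene at which none was called, and no difference between treatments could be tested against the spread between samples. The lists hold no expression values, so neither the activity of these genes nor the markers of the cell type could be checked.

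MCM2 to MCM7 form the ring-shaped helicase that is loaded on origins before S phase and unwinds DNA ahead of the replication fork. PCNA is the sliding clamp that holds DNA polymerases on their template. Cyclin A2 (Ccna2) drives cyclin-dependent kinases through S phase and into mitosis, cyclin D1 (Ccnd1) drives CDK4 and CDK6 in G1, and p21 (Cdkn1a) inhibits cyclin-CDK complexes and also binds PCNA. CREB1 is the cAMP-responsive activator downstream of the V2 receptor and protein kinase A. It binds the cAMP response element (CRE), with the letters TGACGTCA, or the shorter form TGACG, called the CRE core here. C/EBP beta is a leucine zipper factor whose sites hold TTGC and AA in the pattern TTGCNNAA. In human cells, CRE-like elements have been described in the promoters of the genes for cyclin A2, cyclin D1 and PCNA.

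Of the 10 genes, 5 had a peak of either factor in the gene or within 50 kb: Pcna, Mcm5, Mcm3, Ccna2 and Cdkn1a. The other 5 (Mcm2, Mcm4, Mcm6, Mcm7 and Ccnd1) had none in any of the 4 lists. Over all protein-coding genes the share with a peak in any list was 27.9%. CREB1 peaks lay in or near 3 of the 10 genes after dDAVP (Pcna, Mcm5 and Ccna2) and 4 after vehicle (the same 3 genes and Cdkn1a). The shares over all genes were 6.98% after dDAVP and 12.6% after vehicle. C/EBP beta peaks lay in or near 3 of the 10 after dDAVP (Mcm3, Mcm5 and Ccna2) and 2 after vehicle (Mcm3 and Mcm5), against 19.6% and 2.04% of all genes. The genes were named with earlier results of these lists known, so these counts are no evidence about the class. The median length of the members was 11.7 kb, against 17.3 kb over all genes.

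The promoters with a peak are shown here, since the sites turn on a few letters in each. RefSeq promoter windows, from 250 bases before to 50 bases after an annotated transcript start (GRCm38.p6), were given for 7 of the 10 genes. Peaks overlapped such a window at Mcm5, Pcna and Mcm3, and the Mcm2 window is printed beside them as one that holds CRE cores and had no peak. All are 300 bases, written 5′ to 3′ along the gene. Capitals mark the CRE in Mcm5, the cores (on either strand, so also CGTCA) in Pcna and Mcm2, and the C/EBP-type match in Mcm3.
Mcm5, chr8:75109259-75109558, plus strand: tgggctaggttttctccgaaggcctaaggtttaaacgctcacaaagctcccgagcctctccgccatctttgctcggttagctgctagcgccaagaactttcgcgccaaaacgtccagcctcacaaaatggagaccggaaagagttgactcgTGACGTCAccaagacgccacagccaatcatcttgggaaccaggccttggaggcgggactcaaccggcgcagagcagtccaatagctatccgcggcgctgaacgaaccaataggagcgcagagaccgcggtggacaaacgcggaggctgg
Pcna, chr2:132253131-132253430, minus strand: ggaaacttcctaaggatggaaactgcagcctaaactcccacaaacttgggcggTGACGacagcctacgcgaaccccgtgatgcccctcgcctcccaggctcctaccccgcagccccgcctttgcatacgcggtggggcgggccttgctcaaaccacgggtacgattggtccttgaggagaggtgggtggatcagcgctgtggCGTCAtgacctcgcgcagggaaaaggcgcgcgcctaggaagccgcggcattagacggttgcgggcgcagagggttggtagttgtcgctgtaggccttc
Mcm3, chr1:20820263-20820562, minus strand: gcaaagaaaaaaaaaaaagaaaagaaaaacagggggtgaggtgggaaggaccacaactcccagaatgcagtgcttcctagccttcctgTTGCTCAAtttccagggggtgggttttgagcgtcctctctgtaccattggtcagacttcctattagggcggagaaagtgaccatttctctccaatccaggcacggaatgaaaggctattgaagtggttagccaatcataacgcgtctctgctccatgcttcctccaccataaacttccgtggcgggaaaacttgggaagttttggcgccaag
Mcm2, chr6:88898731-88899030, minus strand: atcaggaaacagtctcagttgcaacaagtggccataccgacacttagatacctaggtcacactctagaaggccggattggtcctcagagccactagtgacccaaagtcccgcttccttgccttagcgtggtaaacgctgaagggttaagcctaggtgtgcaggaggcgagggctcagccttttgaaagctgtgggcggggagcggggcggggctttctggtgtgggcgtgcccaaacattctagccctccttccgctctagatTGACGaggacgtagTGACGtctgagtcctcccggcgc

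Mcm5 (chr8:75109468-75128439) was the helicase gene with a CREB1 promoter site. The peak after dDAVP spanned chr8:75109336-75109499 (164 bp) and the peak after vehicle chr8:75109265-75109564 (300 bp). Their centres lay 92 and 95 bp upstream of the transcript start that the window uses. A complete CRE, TGACGTCA, stood at positions -99 to -92 from that start. It lay 4 bp from the centre of the dDAVP peak and 1 bp from the centre of the vehicle peak. The whole dDAVP peak was contained in the window, as were 294 bp of the vehicle peak.

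A complete CRE was found in 2.26% of all 21045 promoter windows. Among windows that a CREB1 peak overlapped, 27.6% held one after dDAVP and 23.5% after vehicle. Where a CRE was inside both a window and a CREB1 peak, the distance of the nearest one from the peak centre was taken. Its median was 15 bp after dDAVP (87 peaks) and 17.5 bp after vehicle (152 peaks), so the Mcm5 match was closer to the centre than most. It was closer than the lower quartile of 9 bp in both lists. The same peaks at Mcm5 also covered a pair of overlapping E2F-type matches, TTTCGCGC at positions -153 to -146 and TTTGGCGC (read on the opposite strand) at positions -149 to -142. E2F factors are the main activators of replication genes. These letters were found in 0.456% and 0.641% of all windows. Mcm6 held E2F-type matches as well, 2 of TTTGGCGC and 1 of TTTCGCGC, with no peak of either factor. Mcm7 held TTTCGCGC at positions 16 to 23, also with no peak. Mcm3, which had C/EBP beta peaks, held TTTGGCGC at positions 38 to 45, not wholly inside them. None of the members' windows held the C/EBP palindrome TTGCGCAA or the C/EBP-ATF letters TGATGCAA, which were in 0.223% and 0.851% of all windows.

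Pcna (chr2:132249286-132253180) had a CREB1 peak in both lists, with no complete CRE in its window. The dDAVP peak spanned chr2:132253231-132253398 (168 bp) and the vehicle peak chr2:132253117-132253499 (383 bp). Their centres lay 134 and 128 bp upstream of the start. A CRE core at positions -197 to -193 was inside both peaks, 61 bp from the dDAVP centre and 67 bp from the vehicle centre. A second core, at positions -48 to -44 on the opposite strand, was inside the vehicle peak and just outside the narrower dDAVP peak. For CREB1 peaks with a core inside both the peak and a promoter window, the distance from the nearest such core to the centre was taken. Its median was 16 bp after dDAVP (upper quartile 29 bp, 271 peaks) and 18 bp after vehicle (upper quartile 31 bp, 505 peaks). The cores of Pcna thus lay farther from the centre than in most CREB1 promoters.

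CRE cores are common, in 23.8% of all windows, and in 90% and 85.5% of windows under a CREB1 peak after dDAVP and after vehicle. Nearer to the Pcna peak centre than either core was TTGCTCAA, a match to the C/EBP-type pattern, at positions -107 to -100. It lay 31 bp from the dDAVP centre and 25 bp from the vehicle centre of the CREB1 peaks. No C/EBP beta peak was listed there: the nearest was 421 kb from the gene after dDAVP and 12900 kb after vehicle. The Pcna window spans the gap between Pcna and Cds2, an enzyme gene of phospholipid synthesis. The peak centres were 24 and 30 bp from an end of Cds2 after dDAVP and after vehicle, nearer than to Pcna, so the lists alone do not assign the site to Pcna.

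Mcm3 (chr1:20802966-20820312) was the helicase gene with a C/EBP beta promoter site. The peak after dDAVP spanned chr1:20820269-20820660 (392 bp), and the peak after vehicle, chr1:20820322-20820583 (262 bp), lay wholly inside it. Their centres were 152 and 140 bp upstream of the start. The same letters as in Pcna, TTGCTCAA, stood at positions -162 to -155, here 6 bp from the dDAVP centre and 18 bp from the vehicle centre. Over all C/EBP beta peaks with such a match inside a promoter window, the median distance was 13 bp after dDAVP (95 peaks) and 16 bp after vehicle (21 peaks). The pattern TTGCNNAA was in 10.3% of all windows and in 36.5% and 61.5% of windows under a C/EBP beta peak after dDAVP and after vehicle.

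**Figure D1:**
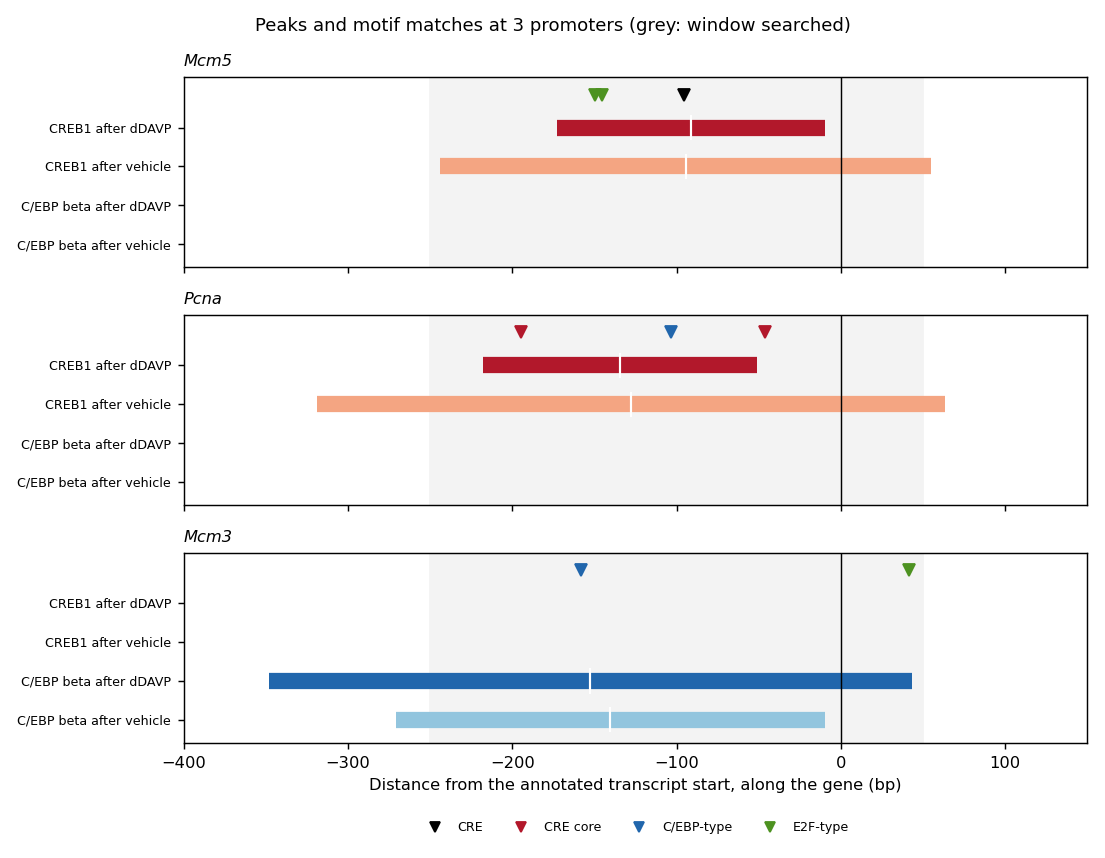
Peaks (bars, white line at the centre) and motif matches (triangles) by distance in bp from the annotated transcript start of Mcm5, Pcna and Mcm3, with the searched window in grey. The CRE of Mcm5 (its 2 overlapping cores not drawn) and the C/EBP-type match of Mcm3 stand within 18 bp of every peak centre there, while the cores inside the Pcna peaks stand 61 to 82 bp from the centre.

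C/EBP beta peaks carry a score, the authors' own value for each peak, of unstated scale and origin, used here to rank peaks within a list. The peak names beside it are those of replicate 1. The Mcm3 peak scored 1650 after dDAVP, rank 41 of 2401, and 236 after vehicle, rank 38 of 209. It was thus among the best-scoring sites of the dDAVP list and in the upper part of the vehicle list. A C/EBP beta peak overlapped a promoter window of 1.59% of genes after dDAVP and 0.197% after vehicle, and Mcm3 was the single one of the 7 members with a window at which it did so, in both lists. No CREB1 peak was near Mcm3: the nearest was 16600 kb away after dDAVP and 3860 kb after vehicle. A CREB1 peak overlapped the window of 2 of these 7 genes (Mcm5 and Pcna) in each list, against 2.11% of genes after dDAVP and 4.09% after vehicle.

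At Ccna2 (chr3:36564865-36573038) a CREB1 site lay inside the gene in both lists. Ccna2 had no promoter window, so the distance of this site from a transcript start was not measured. The dDAVP peak spanned chr3:36571933-36572191 (259 bp) and the vehicle peak chr3:36571896-36572217 (322 bp). Their centres were 976 and 982 bp inside the end with the higher coordinate, 36573038. A second CREB1 site was 12.1 kb beyond the other end of the gene in both lists, at chr3:36552507-36552717 (211 bp) after dDAVP and chr3:36552429-36552734 (306 bp) after vehicle. It sat on an end of Exosc9, a gene of the RNA exosome, with centres 0 and 25 bp from that gene. Exosc9 fills the space between this site and Ccna2, so the second site is linked to Ccna2 by distance alone.

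After dDAVP a C/EBP beta peak lay 439 bp from the CREB1 peak at Exosc9, at chr3:36551822-36552068 (247 bp), 12.8 kb from Ccna2. It had a score of 113, rank 1808 of 2401, among the lower scores of the list, and no vehicle peak overlapped it. Over the whole CREB1 dDAVP list, 7.64% of peaks had a C/EBP beta dDAVP peak within 1 kb. The nearest C/EBP beta peak to Ccna2 in the vehicle list was 8870 kb away.

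Cdkn1a (chr17:29090979-29100722) was the one member with a CREB1 peak in a single treatment. The vehicle peak spanned chr17:29095384-29095644 (261 bp) inside the gene, 4535 bp from its lower end and 1745 bp downstream of the second of its 2 annotated transcript starts. It overlapped no promoter window, and neither window of Cdkn1a held a CRE, a core or a C/EBP-type match. In the dDAVP list the nearest CREB1 peak was 560 kb away. Of all 785 CREB1 vehicle peaks, 50.6% overlapped a dDAVP peak, so a peak of the longer list without a counterpart is common and shows no loss of binding. The Cdkn1a peak was 261 bp wide, against a median of 343 bp for vehicle peaks that were shared and 244 bp for those that were not. The next CREB1 vehicle peak on that side of the gene, 58.3 kb away and just outside the 50 kb window, stood at Srsf3, a splicing factor gene.

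Mcm5 also had C/EBP beta peaks within 50 kb, all on its upstream side. One was at chr8:75093367-75093729 (363 bp) after dDAVP, with a score of 1408 (rank 64 of 2401), and at chr8:75093440-75093708 (269 bp) after vehicle, with a score of 395 (rank 14 of 209). Its nearest base was 15.7 kb from Mcm5 after dDAVP and 15.8 kb after vehicle. In both lists it overlapped an end of Hmox1, the heme oxygenase gene that lies next to Mcm5. Its centre was 70 bp (dDAVP) and 44 bp (vehicle) outside Hmox1. A further peak, at chr8:75083765-75084065 (301 bp), was in the dDAVP list alone, with a score of 208 (rank 1138). Its nearest base was 25.4 kb from Mcm5 and its centre 9703 bp from Hmox1. Hmox1 was the nearest gene to each of these peaks. The closest CREB1 and C/EBP beta peaks around Mcm5 were 15607 bp apart after dDAVP and 15557 bp after vehicle. Peaks of both factors within 50 kb were thus found at Mcm5 and Ccna2 after dDAVP (2 of 10, against 2.37% of all genes) and at Mcm5 after vehicle (1 of 10, against 0.43%). At both genes the C/EBP beta peaks were nearer to a neighbour.

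**Figure D2:**
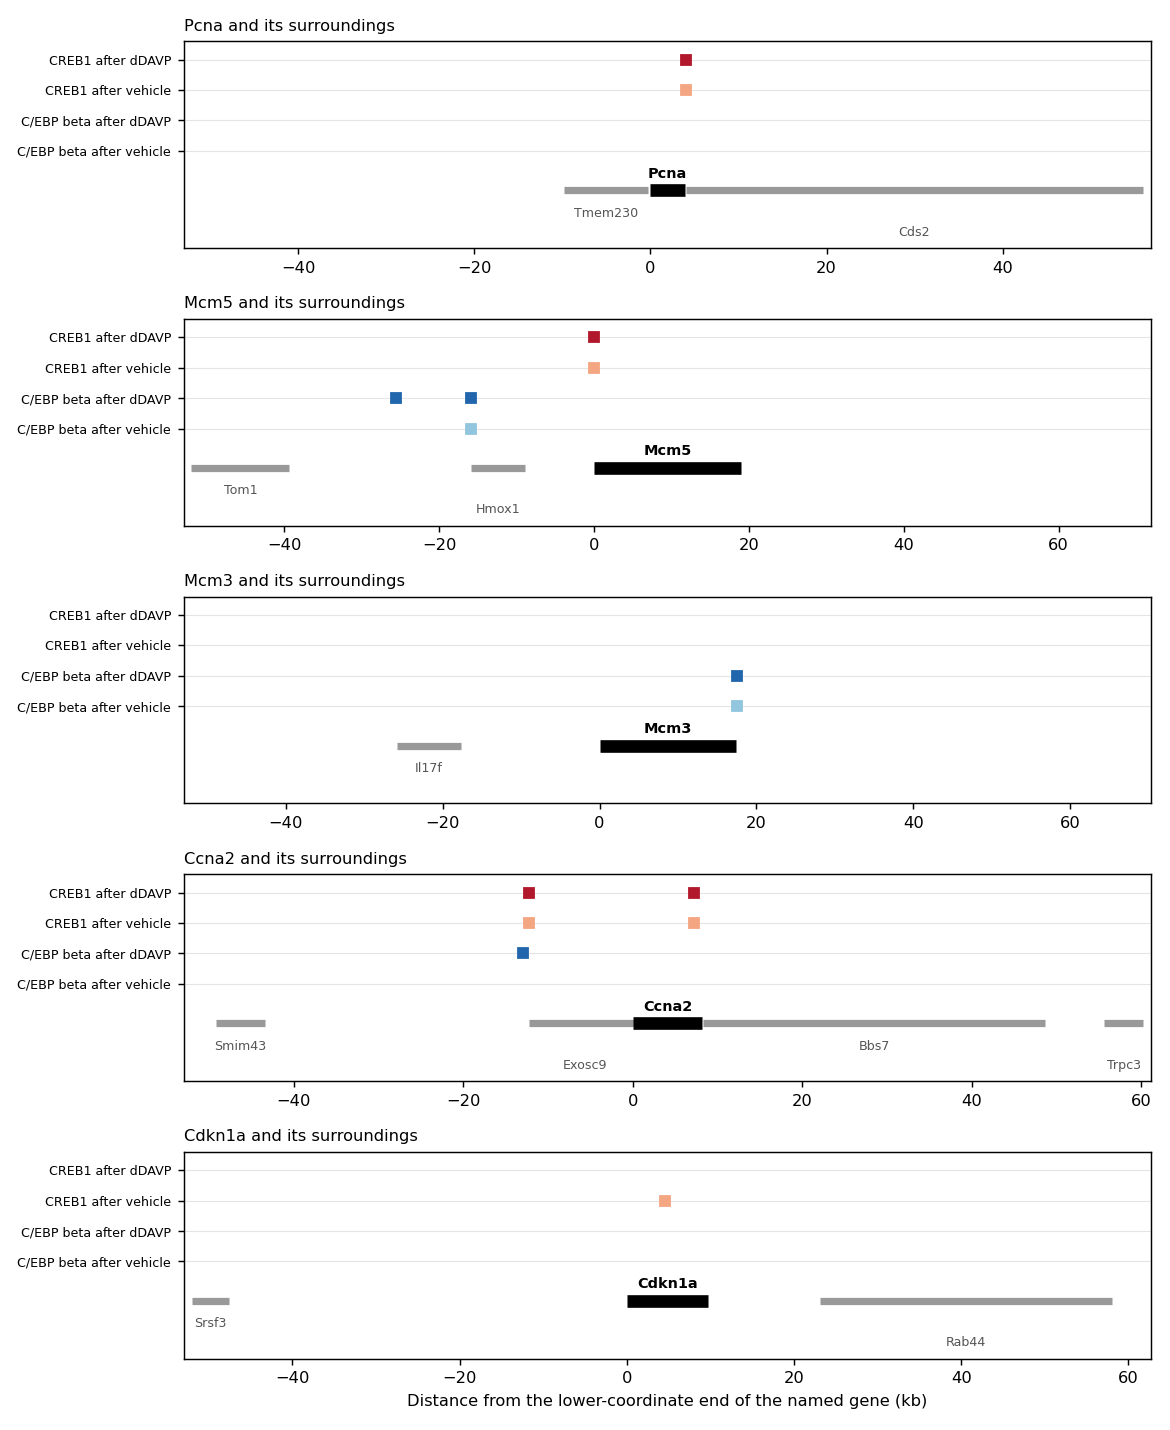
Peaks (squares at the peak centre, wider than the peaks to scale) around the 5 genes with a peak, by distance in kb from the lower-coordinate end of each gene; black bars are the named genes and grey bars are neighbours, cut at the panel edges. Among the 7 members with a promoter window, CREB1 has a promoter site at Pcna and Mcm5, and C/EBP beta at Mcm3. Ccna2 has no window, so the CREB1 peaks inside it were not scored for a promoter. The C/EBP beta peaks near Mcm5 and Ccna2 stand at or beyond Hmox1 and Exosc9.

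The 4 CREB1 sites found in both treatments were narrower after dDAVP at every site. Widths were 168 bp after dDAVP and 383 bp after vehicle at Pcna, and 164 and 300 bp at Mcm5. They were 259 and 322 bp inside Ccna2, and 211 and 306 bp at the Exosc9 end. Each dDAVP peak was contained in its vehicle peak. The Pcna and Mcm5 peaks were among the narrowest of the dDAVP list, at percentiles 8.13 and 6.65 of width, while in the vehicle list they stood at percentiles 84.2 and 53.8.

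The same order held across the lists: 392 of 398 overlapping CREB1 pairs were narrower after dDAVP, with a median difference of -87 bp (dDAVP minus vehicle). For C/EBP beta the order was the other way, and all 209 pairs were wider after dDAVP, with a median difference of 168 bp. At the members, the C/EBP beta widths were 392 bp after dDAVP and 262 bp after vehicle at Mcm3, and 363 and 269 bp at the Hmox1 end near Mcm5. In both factors the longer list had the wider peaks. The 4 CREB1 peaks at members after dDAVP all overlapped a vehicle peak, as did 98% of that list. Of the 4 C/EBP beta peaks at members after dDAVP, 2 did, against 8.7% of that list. Those 2 were the Mcm3 peak and the peak at the Hmox1 end, with scores of rank 41 and 64 of 2401. The genes were named with earlier results of these lists known, so this count is no evidence about the class.

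**Figure D3:**
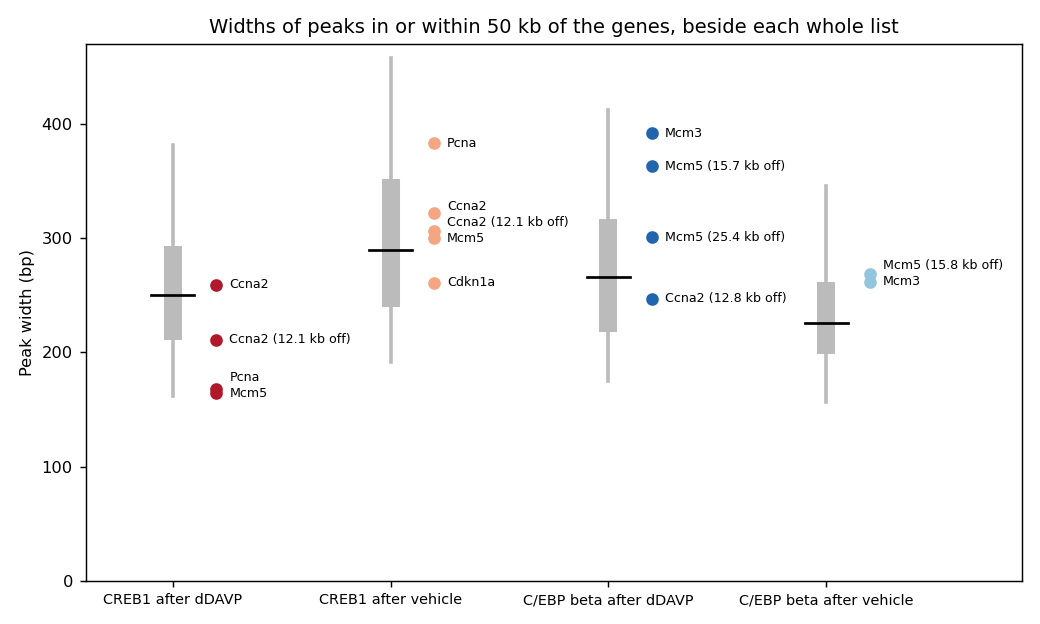
Peak widths in bp for the peaks in or within 50 kb of the 10 genes (dots, labelled by gene, with the distance where it is over 5 kb), beside each whole list (thick bar, quartiles; thin line, percentiles 5 to 95; black line, median). The Pcna and Mcm5 peaks are at the narrow end of the CREB1 dDAVP list (168 and 164 bp) and at 383 and 300 bp after vehicle.

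The other members, 5 in all, had no peak within 50 kb in any list, namely Mcm2 (chr6:88883474-88898780), Mcm4 (chr16:15623897-15637400), Mcm6 (chr1:128331575-128359705), Mcm7 (chr5:138164583-138172111) and Ccnd1 (chr7:144929931-144939831). Ccnd1 was the farthest from CREB1 peaks, with the nearest at 26400 kb after dDAVP and 12000 kb after vehicle. Of all genes, 94.1% and 93.8% had a CREB1 peak at least as near in those lists. Its nearest C/EBP beta peaks were 696 kb away after dDAVP and 1620 kb after vehicle. For Mcm4 the nearest CREB1 peak was 226 kb away in both lists.

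Mcm2, Mcm6 and Mcm7 lay 2410, 22000 and 1290 kb from a CREB1 peak after dDAVP, and 1040, 2770 and 1290 kb from one after vehicle. The median over all genes was 1744040 bp after dDAVP and 809555 bp after vehicle. Mcm2 came closest to the 50 kb limit, with a C/EBP beta dDAVP peak 70.8 kb away, inside Mgll, a lipase gene. Mcm4, Mcm6 and Mcm7 were 1260, 1100 and 614 kb from a C/EBP beta peak after dDAVP, farther than the median gene (272398 bp). The CRE cores in the windows of Mcm2 (positions 13 to 17 and 27 to 31) and Mcm7 (positions 8 to 12) lay downstream of the start, whereas those of Mcm5 and Pcna lay upstream of it. These are single windows, and the absence of a called peak says nothing of why.

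**Figure D4:**
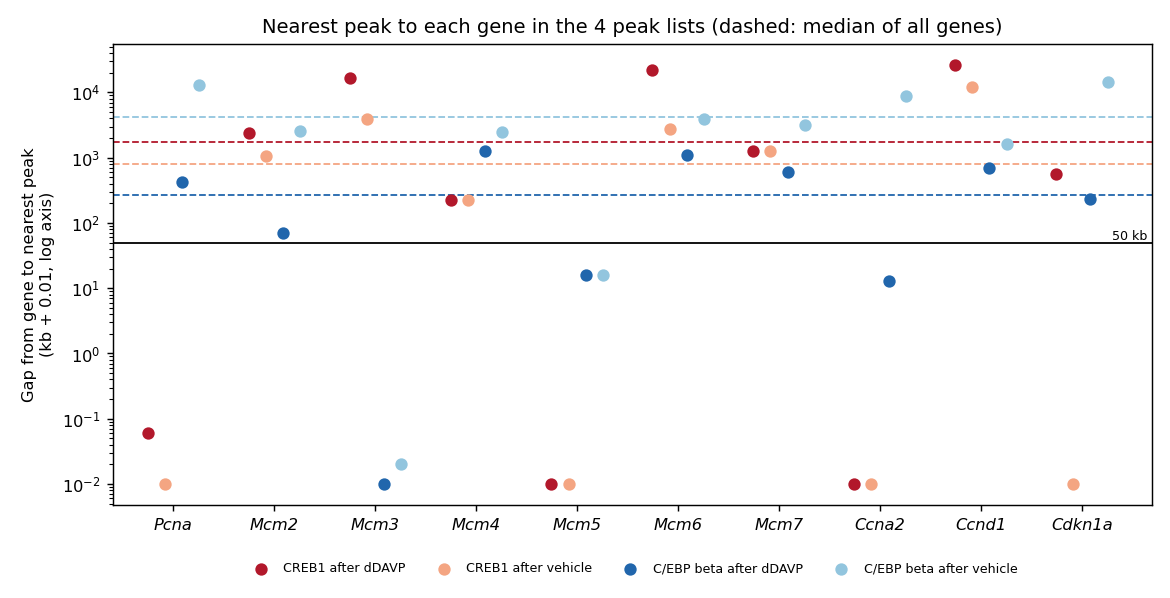
Gap in kb (log axis, 0.01 kb added so that overlaps can be drawn) from each of the 10 genes to its nearest peak in each list, with the median over all genes dashed and the 50 kb rule as a solid line. For CREB1 every gap is either at most 0.051 kb (Pcna, Mcm5 and Ccna2 in both lists, Cdkn1a after vehicle) or at least 226 kb.

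The same count was made for 7 further lists, with 134 genes, of replication, the cell cycle and growth arrest. Within 5 kb, CREB1 peaks lay near 5 of the 134 after dDAVP (3.73%) and 14 after vehicle (10.4%), against 2.74% and 5.2% of all genes. C/EBP beta peaks lay within 5 kb of 16 after dDAVP (11.9%) and 0 after vehicle, against 7.88% and 0.786% of all genes. For the 10 members the counts were 3 after dDAVP and 4 after vehicle for CREB1, and 1 and 1 for C/EBP beta. The widest of these gaps between the 134 genes and all genes was for CREB1 after vehicle. No test was made of them, since the lists were written with earlier results of these data known.

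**Figure D5:**
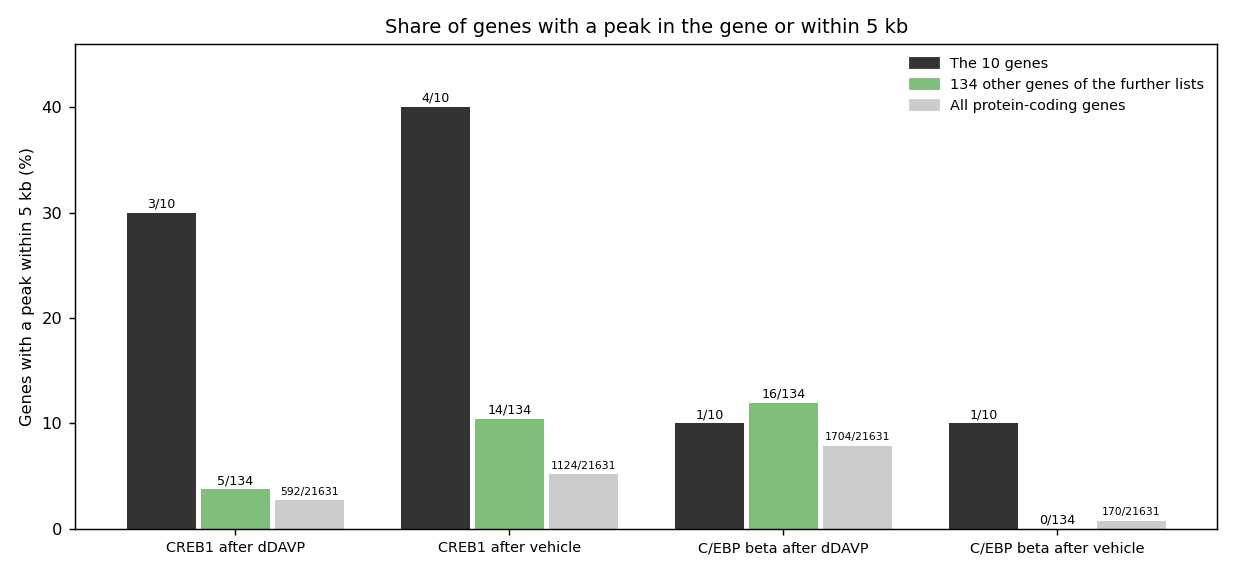
Percent of genes with a peak in the gene or within 5 kb in each list, for the 10 genes, the 134 further replication, cell cycle and growth arrest genes and all protein-coding genes; counts stand above the bars. CREB1 peaks after vehicle were near 14 of the 134 genes (10.4%) and 5.2% of all genes, and the C/EBP beta vehicle list had 0 of the 134.

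Among the 6 MCM relatives, which include the MCM8 and MCM9 helicase subunits, no gene had a CREB1 peak within 50 kb. The shares of all genes were 6.98% after dDAVP and 12.6% after vehicle. C/EBP beta dDAVP peaks lay within 5 kb of 2 of the 6, against 7.88% of all genes. The 2 were Mcmdc2, a meiotic MCM domain gene, and Mcmbp, a binding partner of MCM proteins. The peak centres were 4128 and 4923 bp from a gene end. For Mcmbp the peak lay inside Sec23ip.

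Origin licensing and firing genes had CREB1 peaks within 5 kb at 2 of 19 after dDAVP and 5 of 19 after vehicle. The shares of all genes were 2.74% and 5.2%. Recql4, a helicase gene needed for origin firing, and Orc1, the largest origin recognition subunit, had one in both lists. The Recql4 centres were 7 bp (dDAVP) and 12 bp (vehicle) from one end of the gene, and the vehicle centre lay inside the neighbour Lrrc14. The Orc1 centres were 3531 bp (dDAVP) and 3525 bp (vehicle) from the nearer end of the gene and inside it, within Prpf38a, which overlaps it. They lay 218 and 224 bp upstream of an annotated Orc1 transcript start. Orc5, Gins2, a subunit of the replicative helicase complex, and Cdc45, its partner, had a CREB1 peak after vehicle alone, with centres 43, 219 and 321 bp from a gene end. The Cdc45 peak lay inside Ufd1. C/EBP beta dDAVP peaks lay within 5 kb of 2 of 19, against 7.88% of all genes. They were at Gins1, 74 bp from an end, and near Cdt1, which loads the MCM helicase, at 1304 bp and nearer to Aprt.

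Replication fork and nucleotide synthesis genes had CREB1 peaks within 5 kb at 2 of 35 after dDAVP and 5 of 35 after vehicle. The shares of all genes were 2.74% and 5.2%. Rfc4, a subunit of the complex that loads PCNA, was centred 29 bp (dDAVP) and 36 bp (vehicle) from one end of the gene. Rrm1, the large subunit of ribonucleotide reductase, was centred 142 and 110 bp inside an end. Rfc1, another clamp loader subunit, had a vehicle peak 2954 bp inside the gene, with its centre 24 bp upstream of an annotated transcript start. Wdhd1 and Chaf1a had vehicle peaks nearer to Socs4 and Sh3gl1. C/EBP beta dDAVP peaks lay within 5 kb of 4 of 35, against 7.88% of all genes. They were inside Rrm2, the small reductase subunit (2049 bp from an end), and Pola2, a primase-polymerase subunit (4547 bp). The others were 482 and 426 bp from an end of Pole3 and Fen1, where another gene was nearer.

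Of the cyclin and cyclin-dependent kinase genes, 0 of 17 had a CREB1 peak within 5 kb after dDAVP and 1 of 17 after vehicle, against 2.74% and 5.2% of all genes. The vehicle peak was near Cdk2, inside Pmel. Within 50 kb the CREB1 counts were 3 of 17 (17.6%) after dDAVP and 4 of 17 (23.5%) after vehicle, against 6.98% and 12.6% of all genes. C/EBP beta dDAVP peaks within 5 kb lay at 2 of 17, against 7.88% of all genes: near Cdk2, also inside Pmel, and inside Ccnd3, cyclin D3, 6185 bp from an end with a score of 329. Inhibitors, pocket proteins and E2F genes had CREB1 peaks at 0 of 21 in both treatments, within 5 kb and also within 50 kb. The shares of all genes after dDAVP and after vehicle were 2.74% and 5.2% within 5 kb, and 6.98% and 12.6% within 50 kb. C/EBP beta dDAVP peaks lay inside Cdkn1b, the CDK inhibitor p27 (score 561, rank 339 of 2401), E2f2 (score 295) and Tfdp1, the E2F partner (score 273). Within 5 kb the C/EBP beta dDAVP count was 3 of 21, against 7.88% of all genes. Of 20 mitosis genes, Kif11, a spindle motor gene, had a CREB1 vehicle peak 105 bp from a gene end, and no other had a peak of either factor within 5 kb. The counts were 1 of 20 for CREB1 after vehicle and 0 of 20 for C/EBP beta after dDAVP, against 5.2% and 7.88% of all genes.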

How the data were processed

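ChIP libraries against CREB1 and C/EBP beta, and inputs, came from 22 samples of mpkCCD cells, grouped by title; 10 were inputs, 2 of them used for both antibodies. BWA, SAMtools, MACS2, bedtools and mm10 are named in the submitters' processing notes without versions or roles. How the replicates entered a list is not stated there. Each deposited C/EBP beta list holds a score per peak and names of replicate 1 with bandwidth 300, 1 duplicate kept and q 0.01, per the names in the files; the CREB1 lists hold positions alone. Depth is unknown.

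Peaks were linked to 21631 RefSeq protein-coding genes (GRCm38.p6, the assembly of mm10) when any base lay in the gene or within 50 kb. Exons and introns were not annotated in the gene table. Distances are from the peak centre to a gene end or transcript start, or gaps between nearest bases. Motifs were matched on both strands of 21045 RefSeq promoter windows; the planned search in whole peaks was not run, because no genome was used here, and Mcm4, Ccna2 and Ccnd1 had no window. The motifs were TGACGTCA, TGACG, TTGCGCAA, TTGCNNAA, TGATGCAA, TTTGGCGC and TTTCGCGC; TGACG lies within TGACGTCA, and TTGCGCAA is a case of TTGCNNAA. Peaks shared between treatments overlapped by at least 1 bp. Python 3.11.15, pandas 2.3.3 and bedtools 2.31.1 were used, and the distance routine was tested on simulated data.

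No statistical test was made, since each group is 1 list. All 10 members are named, and genes of the other lists when a peak lay within 5 kb, up to 6 per gene list and peak list. Members and gene lists were chosen with earlier results of these data known. Alternatives covered the distance, the peak centre, nearest-gene assignment, the upper 50% of scores and a stricter overlap.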

Additional observations from a re-analysis of the deposited data

How the results depend on the processing

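The CREB1 counts moved little: at 5, 10 and 100 kb and by peak centre they stayed at 3 genes after dDAVP and 4 after vehicle, and with each peak given to its nearest gene alone they were 2 and 3, since the Pcna peak then went to Cds2. The C/EBP beta counts depended on the distance. They were 3 after dDAVP and 2 after vehicle at 50 kb, but 1 and 1 at 5 kb, at 10 kb and with nearest-gene assignment, where Mcm3 alone was left, because the peaks near Mcm5 and Ccna2 lie at neighbouring genes. In the upper 50% of scores the counts were 2 and 2. C/EBP beta dDAVP peaks at members that overlapped a vehicle peak numbered 2, and 1 at 5 kb. For CREB1 they numbered 4, and 3 when the overlap had to cover 50% of both peaks. At 5 kb, where the site at Exosc9 was not counted, the CREB1 number was also 3. In all, 20 of the 27 alternative values stayed within 1.5 times the value reported and 7 did not.

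No paired analysis was possible because each group has 1 list with no values of single replicates, and no replicate was left out for the same reason. The depth of the libraries is unknown. A peak missing from the CREB1 dDAVP list or the C/EBP beta vehicle list, the shorter of each pair, was not called there, and the effect of depth on the counts was not tested.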

Other observations

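Growth arrest and p53 pathway genes lie next to Cdkn1a in function and were counted in the same way. CREB1 peaks within 5 kb lay at 1 of 16 after dDAVP (Btg1, an antiproliferative gene) and 2 of 16 after vehicle (Btg1 and Plk2). The shares of all genes were 2.74% and 5.2%. The Btg1 centres were 102 bp (dDAVP) and 88 bp (vehicle) from one end of the gene, and the Plk2 centre was 75 bp from one. C/EBP beta dDAVP peaks within 5 kb lay at 3 of 16: inside Gadd45a, a stress-induced growth arrest gene, 491 bp from an end with a score of 375; 97 bp from an end of Plk3, a stress-responsive polo-like kinase gene, with a score of 160; and 3644 bp from an end of Sesn2 with a score of 318. The share of all genes with a C/EBP beta dDAVP peak within 5 kb was 7.88%. C/EBP beta vehicle peaks within 5 kb lay at 0 of 16, against 0.786% of all genes, and within 50 kb at 1 of 16 (6.25%, Plk3), against 2.04% of all genes.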
